A study of Drosophila melanogaster with 103 samples.

Results

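Binding of Sfmbt, a Polycomb group (PcG) protein, was compared between D17 and S2 cells of Drosophila melanogaster. The compared items are the peaks of the deposited Sfmbt lists, 1 list per line. The D17 list holds 2070 peaks and the S2 list 4408, together 6478 of the 227654 peaks in the 50 lists of the series. A peak was called shared where a peak of the other line overlapped it by at least 1 bp, and D17-only or S2-only otherwise. By that rule 1369 D17 peaks were shared and 701 were D17-only, while 1347 S2 peaks were shared and 3061 were S2-only. The classes of the 2 lines differ in number because a wide peak of one line can overlap several peaks of the other.

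The series profiled PcG and trithorax group proteins, their DNA-binding partners and histone marks by chromatin immunoprecipitation and sequencing in 3 cultured lines. D17 (ML-DmD17-c3) is a line derived from imaginal discs, and S2 (S2-DRSC) is an embryonic line with features of blood cells. The labels name no treatment and no engineered genotype. Each line gave 2 Sfmbt libraries from separate flasks and 1 input library.

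Each line is a single established culture, so the comparison is between these cultures and not between tissues. The line labels were checked with H3K27ac, a mark of active genes, within 500 bp of a gene end. In D17, 10 of 36 appendage patterning genes had such a peak, against 3 of 36 in S2. For 19 blood cell genes the counts were 9 in D17 and 10 in S2, so this blood cell list did not separate the lines. Over all 13946 protein-coding genes 54.8% had the mark in D17 and 52.1% in S2. The lists give no values by replicate, which leaves every difference without a replicate error, and the sequencing depth is unknown. Shares are given with exact 95% binomial (Clopper-Pearson) intervals and differences of shares with Newcombe intervals, all of which cover counting error only, and peaks of a list are not replicates.

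Sfmbt joins the sequence-specific DNA-binding protein Pho in the Pho-repressive complex, which sits at Polycomb response elements. Its MBT repeats bind lower methylation states of histone lysines, and it contacts Scm, a protein that links it to the PRC1 complex of Pc, Ph and Psc. PRC1 sets H2AK118ub1 and PRC2, which holds E(z) and Pcl, sets H3K27me3, the mark of Polycomb-silenced genes such as the homeotic genes. In imaginal discs Sfmbt is known to be required for silencing of homeotic genes.

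Most D17 peaks had a counterpart in S2, and most S2 peaks had none in D17. The shared share was 66.1% (64.1 to 68.2) of the D17 list and 30.6% (29.2 to 31.9) of the S2 list, so 33.9% of D17 peaks and 69.4% of S2 peaks were confined to their own list. The S2 list is longer, and with S2 shortened by score to the 2070 best-scoring peaks the shares became 52.8% in D17 and 51.4% in S2. At the border between the classes, the narrowest overlap that made a peak shared was 5 bp, the smallest gap that left one unshared was 18 bp, and 92 D17-only and 184 S2-only peaks lay within 1000 bp of a peak of the other line. Shared peaks were wider, with median widths of 720 bp against 495 bp for D17-only peaks and 910 bp against 503 bp for S2-only peaks. All peaks together covered 1559.5 kb in D17 and 3416 kb in S2.

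The peaks of highest fold in each list were nearly always shared. Fold is the authors' enrichment ratio over control from the peak caller. It ranks peaks within a list, and its correlation across shared peaks is also given. D17 and S2 folds printed side by side are each on the scale of their own list. Their sizes do not measure a difference between the lines. In the top fold decile, 193 of 207 D17 peaks (93.2%, 88.9 to 96.3) and 398 of 441 S2 peaks (90.2%, 87.1 to 92.9) were shared. In the lowest decile, D17 had a shared share of 43.5% (36.6 to 50.5) and S2 one of 6.36% (4.27 to 9.07). The median fold was 2.2 for shared and 1.84 for D17-only peaks, and 3.32 for shared and 2.03 for S2-only peaks. As percentiles within the list the medians were 57.4 and 36.4 in D17 and 80.0 and 38.2 in S2. The difference of medians was 21.0 percentile points in D17 and 41.9 in S2. Line-only peaks therefore lay mainly, though not all, in the lower part of each list, and the highest fold among them was 19.5 in D17 and 41.5 in S2.

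**Figure D1:**
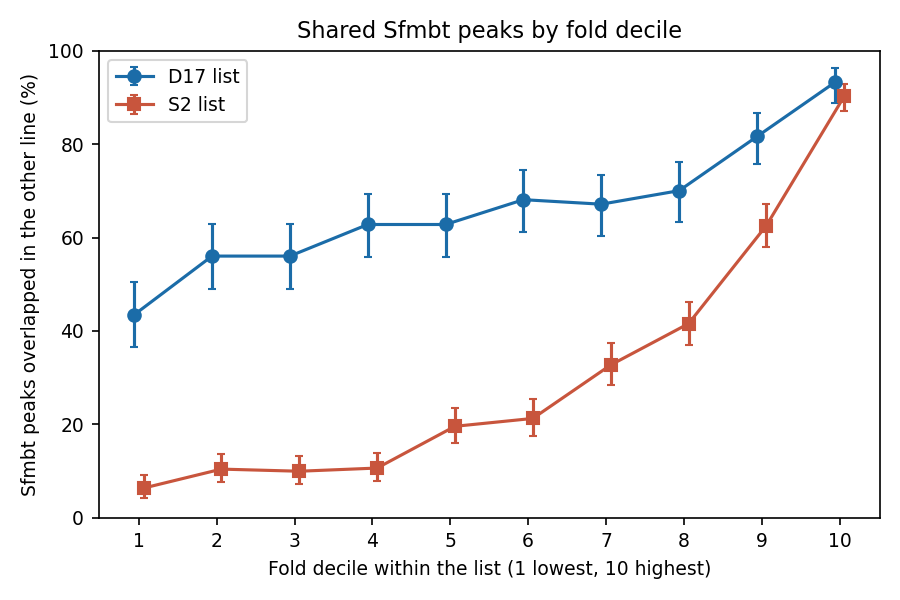
Share of Sfmbt peaks overlapped in the other line (%, y axis) for each fold decile within its list (x axis), with points for the D17 and S2 lists and bars for exact 95% binomial intervals. The share rises from 43.5% to 93.2% in D17 and from 6.36% to 90.2% in S2.

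At the 1369 shared D17 peaks, the fold was related between the lists. Each D17 peak was paired with the overlapping S2 peak of highest fold. Pearson's r of the log2 folds was 0.846 and Spearman's rho 0.702 across these pairs, which are sites and not independent replicates, and 41 S2 peaks entered more than 1 pair. Of the 193 shared peaks in the top D17 decile, 174 were also paired with a top decile S2 peak. Only 3 of them were paired with an S2 peak in the lower 50% of its list, at Glut4EF, at Syp and at rib. In the other direction, 21 pairs joined a top decile S2 peak to a D17 peak in the lower 50%.

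The chromatin over a shared peak went with its fold. In 260 pairs the site lay under H3K27me3 and not H3K27ac in both lines, with a median fold of 7.48 in the D17 list and 14.9 in the S2 list. In 814 pairs it lay under H3K27ac and not H3K27me3 in both lines, with medians of 1.97 and 2.94. As percentiles of their lists, the first group stood at 91.3 and 96.1 and the second at 45.4 and 74.4. Of the 11 other proteins profiled in both lines (Pho, Ph, Pc, Psc, Scm, E(z), Pcl, Spps, GAF, TrxN and TrxC), the first group held a median of 10 in each line and the second 5. A peak within 500 bp of a protein-coding gene end was found for 38.1% of the first group and 66.6% of the second. A site that changed mark between the lines was rare among shared peaks: 27 of 1369 had H3K27ac alone in D17 and H3K27me3 alone in S2, and 9 had the reverse.

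**Figure D2:**
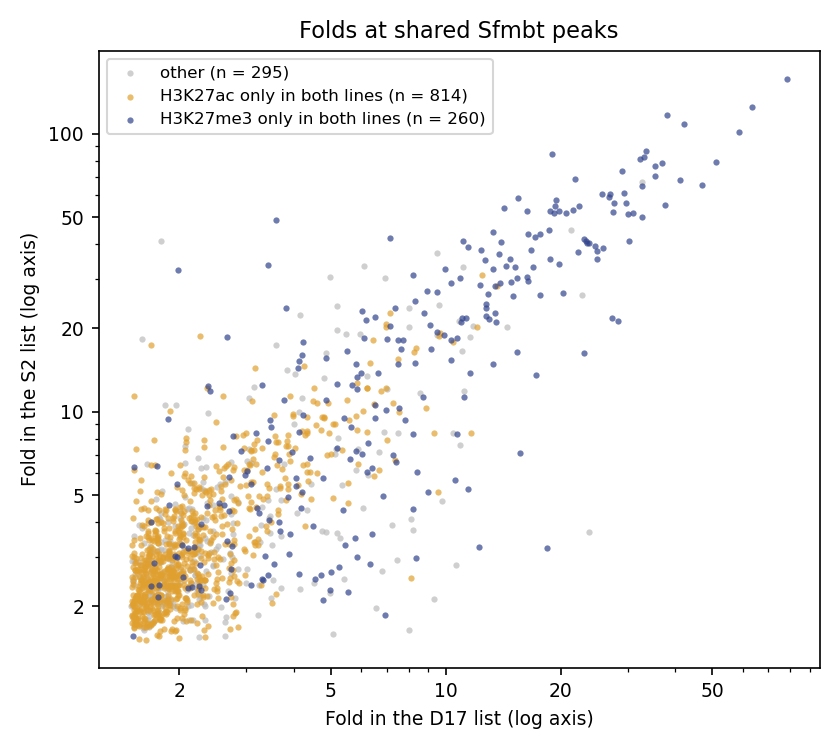
Fold at each of 1369 shared Sfmbt peaks in the D17 list (x axis) and in the S2 list (y axis), both log axes on the scale of their own list. Dark blue points are the 260 sites with H3K27me3 only in both lines, orange points the 814 with H3K27ac only in both lines and grey points the remaining sites; the dark blue points reach the highest folds on both axes.

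The strongest places of both lists were homeotic and other developmental loci. The highest fold of each list, 78.4 in D17 and 158 in S2, was at the same place in the bithorax complex, chr3R:16763424-16764706 (dm6, D17 peak), outside any protein-coding gene and 8483 bp from the noncoding gene lncRNA:bxd. Another, inside Abd-B, the most posterior homeotic gene, had folds of 63.6 and 125, and one inside Ubx, the homeotic gene that specifies the haltere, had 42.0 and 108. All 11 proteins and H3K27me3 lay over these 3 places in both lines.

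By the rule of the highest lower percentile, with a gene end within 2000 bp, the leading shared peaks included those at Dfd, Antp, unc-4, H15, grn, Der-1 and lbe. At Dfd, a homeotic gene of the head, the peak chr3R:6790917-6792404 covered a gene end, with folds of 38.1 in D17 and 117 in S2. At Antp, the homeotic gene of the thorax, the peak chr3R:7000329-7001503 lay 1101 bp from an end, with folds of 41.2 and 68.4. The other peaks had D17 folds of 33.6 (lbe, a homeobox gene of muscle and heart precursors) to 47.0 (unc-4, a homeobox gene of neurons) and S2 folds of 65.6 (unc-4) to 86.6 (lbe). H15 is a T-box gene and grn a GATA factor gene. The peak named for Der-1 lay 446 bp from its end and inside no gene. All of these places lay under H3K27me3 without H3K27ac and held all 11 proteins in both lines, and Kc167, another embryonic line of the series, had Pho, Ph, Pc, Psc, Spps and TrxC at each.

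Shared peaks lay closer to gene ends than line-only peaks, above all in D17. Within 500 bp of an end of a protein-coding gene were 56.7% (54.0 to 59.3) of shared and 24.7% (21.5 to 28.0) of D17-only peaks, a difference of 32.0 percentage points (27.8 to 36). In S2 the shares were 59.8% (57.1 to 62.4) and 49.1% (47.3 to 50.9), a difference of 10.7 points (7.51 to 13.8). The gene table has no strand, so both ends of a gene were used and a start cannot be told from an end. D17-only peaks were farthest from gene ends, with 43.5% more than 5000 bp from any end. The shares were 19.8% of shared D17 peaks, 19.1% of shared S2 peaks and 24.8% of S2-only peaks. A gene body overlapped 68.6% of D17-only and 83.1% of shared D17 peaks. Inside a gene body but over 500 bp from its ends were 47.1% of D17-only peaks and 29.1% of shared D17 peaks. With the S2 list shortened to the D17 length and peaks classed anew, the D17 difference fell to 17.1 points. With only the better-scoring 50% of each list kept and classed anew, the S2 difference fell to 3.6.

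**Figure D3:**
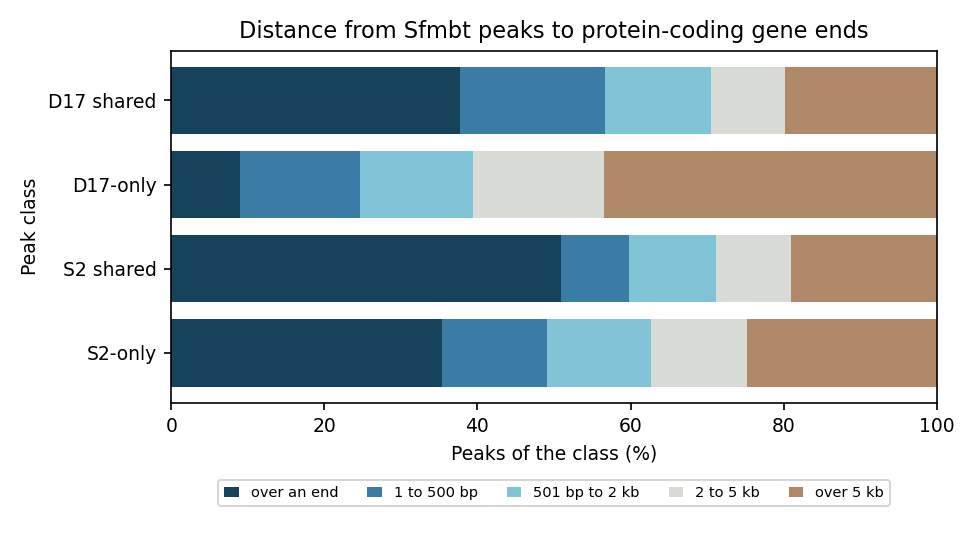
Share of the peaks of each class (%, x axis) by distance to the nearest end of a protein-coding gene, for shared and line-only peaks of D17 and S2 (y axis); colours mark 5 distance ranges. Over an end lay 37.8% of shared D17, 8.99% of D17-only, 50.9% of shared S2 and 35.3% of S2-only peaks.

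Chromosome X held more of the D17-only peaks. It carried 26.5% of D17-only and 15.6% of shared D17 peaks, and 53.5% (48.5 to 58.5) of X peaks of D17 were shared against 69.4% (67.1 to 71.6) of autosomal ones. In S2 the X share was 13.1% of S2-only and 16.2% of shared peaks. The same classing of Pho and Ph peaks gave X shares of 20.9% and 27.6% of D17-only peaks, against 14.4% and 17% of shared D17 peaks. The higher X share of D17-only peaks was thus seen in these lists too, and the part of X chromosome dosage was not tested.

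Pho, the DNA-binding partner of Sfmbt, lay over most shared peaks in both lines. In D17, 66.8% (64.2 to 69.3) of shared and 53.6% (49.9 to 57.4) of D17-only peaks overlapped a D17 Pho peak, a difference of 13.1 points (8.67 to 17.6). In S2, 71.9% of shared and 31.5% of S2-only peaks overlapped an S2 Pho peak, a difference of 40.5 points (37.5 to 43.3). The D17 difference moved to 3.46 points with the better-scoring 50% of each Sfmbt list classed anew. It moved to 22.2 with the lists at equal length, also classed anew. Among peaks above the 50th fold percentile of their list, Pho was over 87.9% of D17-only and 85.9% of shared D17 peaks, and over 48.8% of S2-only and 80.7% of shared S2 peaks. S2-only peaks without Pho were the largest single group, 2098 of 3061, with a median fold of 1.95 against 2.28 for the 963 with Pho.

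At line-only Sfmbt peaks with Pho, the Pho peak was mostly line-only too. The S2 Pho list overlapped 8.99% of D17-only Sfmbt peaks, and of the 376 D17-only peaks with Pho in D17, 13.8% (10.5 to 17.7) also had a Pho peak in S2. The D17 Pho list overlapped 10.6% of S2-only peaks, and of the 963 with Pho in S2, 28.0% (25.2 to 31.0) also had one in D17. At shared D17 peaks with Pho in D17 that figure was 89.5% (87.3 to 91.4). In Kc167 cells, whose lists entered no classing, Pho lay over 88.3% of shared and 36.5% of D17-only peaks, and over 89.5% of shared and 52.4% of S2-only peaks.

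PRC1 and its links to Sfmbt differed between the D17 and S2 line-only classes. Ph, the PRC1 subunit that pairs with Scm, lay over 66.5% of shared and 55.6% of D17-only peaks in D17, and over 68.8% of shared and 41.0% of S2-only peaks in S2. Pc, the subunit that binds H3K27me3, lay over 33.2% of shared and 42.4% of D17-only peaks, but over 36.4% of shared and 12% of S2-only peaks. Within 500 bp of a gene end Pc lay over 24.1% of shared and 23.1% of D17-only peaks, and farther away over 45.2% and 48.7%. Scm followed Pc over all peaks, with 33.7% and 39.2% in D17 and 32.0% and 4.87% in S2. Psc lay over the same share of both D17 classes, 46.4%, and over 63.8% of shared and 32.9% of S2-only peaks. In the upper 50% of the fold ranking, D17-only peaks carried Pc at 65.7%, Scm at 61.3% and Psc at 70.2%, while S2-only peaks carried them at 18.2%, 8.86% and 39.6%. Ph in that part of the D17 list lay over 74.0% of shared and 78.2% of D17-only peaks. In S2 the Ph shares there were 72.8% of shared and 49.9% of S2-only peaks.

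Over all peaks, PRC2 subunits and the other recruiting factors were found more often at shared peaks in both lines. E(z), the H3K27 methyltransferase, lay over 47.4% of shared and 23.5% of D17-only peaks, and over 49.7% of shared and 27.1% of S2-only peaks. Pcl, an accessory subunit of PRC2, lay over 62.5% and 46.9% in D17 and over 59.8% and 28.5% in S2. Spps, a zinc finger protein of the Sp1/KLF family, was the most frequent of the 11 proteins in each class, over 74.8% of shared and 63.9% of D17-only peaks and over 82.3% of shared and 56.3% of S2-only peaks. GAF, which binds GAGA repeats, lay over 63.3% and 38.2% in D17 and over 65.4% and 45.8% in S2. In the upper 50% of the D17 fold ranking the order held for E(z), Pcl and GAF but not for Spps. Spps lay there over 81.6% of shared and 86.3% of D17-only peaks.

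The trithorax protein gave the widest gap between the D17 classes. The antibody called TrxC lay over 62.1% of shared and 12.3% of D17-only peaks in D17, and TrxN over 36% and 12.7%. In S2, TrxC lay over 46.5% of shared and 22.1% of S2-only peaks and TrxN over 56.4% and 39.7%. The D17 TrxC list overlapped 51.1% of S2-only Sfmbt peaks, where D17 has no Sfmbt peak, against 12.3% of the D17-only peaks. Engrailed, profiled in D17 alone, lay over 26.2% of shared and 28.2% of D17-only peaks, and the cohesin subunit Rad21, profiled in S2 and not in D17, over 70.7% of shared and 64.0% of S2-only peaks.

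**Figure D4:**
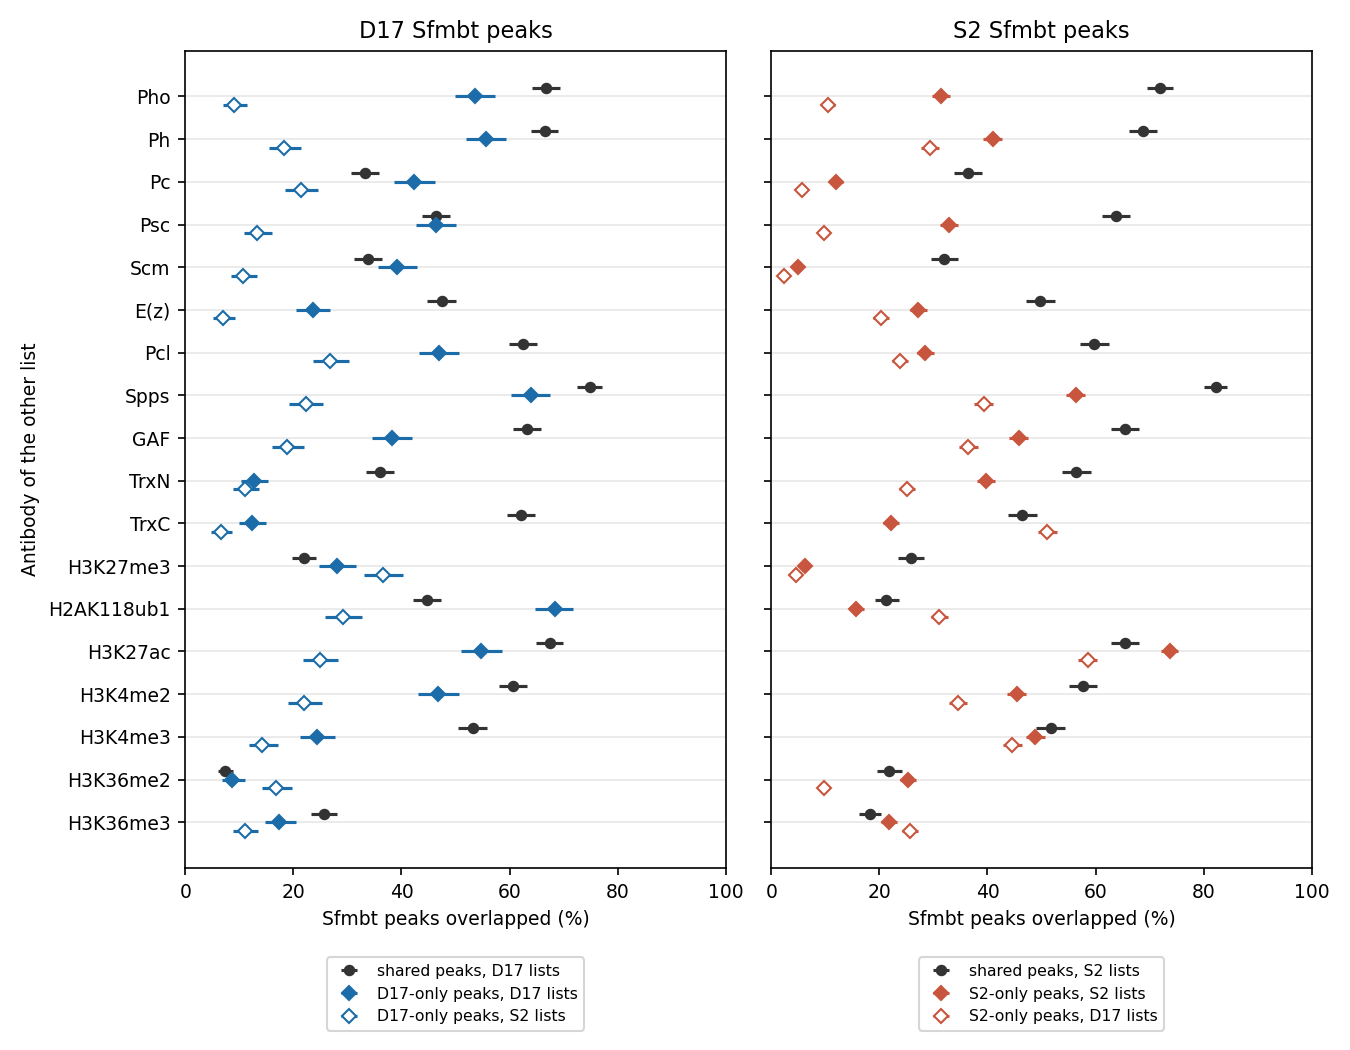
Share of Sfmbt peaks overlapped by the peaks of each of 18 other antibodies (%, x axis), for D17 peaks on the left and S2 peaks on the right. Circles are shared peaks in their own line, filled diamonds line-only peaks in their own line, open diamonds line-only peaks in the lists of the other line, and bars exact 95% binomial intervals; Pho over D17-only peaks is 53.6% in the D17 list and 8.99% in the S2 list.

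Histone marks set the line-only classes of D17 and S2 apart. In D17, H3K27me3 lay over 21.9% (19.7 to 24.2) of shared and 28.1% (24.8 to 31.6) of D17-only peaks, a difference of -6.19 points (-10.2 to -2.27). In S2 it lay over 25.8% of shared and 6.24% of S2-only peaks, a difference of 19.5 points (17.1 to 22.1). H2AK118ub1 showed the same contrast, with 44.7% of shared and 68.3% of D17-only peaks and 21.3% of shared and 15.7% of S2-only peaks. The D17 difference for H3K27me3 turned to 0.406 points (-6.06 to 6.67) when the better-scoring 50% of each list was kept and classed anew. With equal list lengths, also classed anew, it was 3.84 (0.154 to 7.49). With the classes kept, H3K27me3 lay over 35.2% of shared and 41.1% of D17-only peaks in the upper 50% by fold. In the lower 50% it lay over 3.95% and 21.0%. Within 500 bp of a gene end, H3K27me3 lay over 14.7% (12.3 to 17.4) of shared and 13.3% (8.62 to 19.3) of D17-only peaks. Farther away it lay over 31.4% (27.6 to 35.3) and 33.0% (29.0 to 37.1), so the D17 classes were closer within each distance range than in all peaks.

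H3K27ac, the mark of active enhancers and promoters, covered more than 50% of the peaks of each class. It lay over 67.5% of shared and 54.8% of D17-only peaks, a difference of 12.7 points (8.28 to 17.1), and over 65.5% of shared and 73.8% of S2-only peaks, a difference of -8.29 points (-11.3 to -5.33). With the lists classed anew at equal lengths the D17 difference turned to -0.585 points. With the better-scoring 50% of each list classed anew it was 3.15, and the S2 difference widened to -25.9 points. With the classes kept, H3K27ac in the upper 50% by fold lay over 54.8% of shared and 40.3% of D17-only peaks. In S2 it lay over 62.1% of shared and 70.6% of S2-only peaks there. H3K4me3, a mark of active promoters, lay over 53.2% of shared and 24.4% of D17-only peaks and over 51.7% of shared and 48.9% of S2-only peaks. Among peaks over 500 bp from a gene end, H3K27ac lay over 53.8% of shared and 49.4% of D17-only peaks in D17, and over 49.4% of shared and 68.8% of S2-only peaks in S2. Among peaks nearer to an end the shares were 78.0% and 71.1% in D17 and 76.3% and 79.0% in S2.

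The marks of the other line over line-only peaks also differed. H3K27me3 lay over more of the shared D17 peaks in S2 (25.2%) than in D17 (21.9%). Genes without Sfmbt showed the same order by the gene body measure given below (18.8% in S2 and 8.50% in D17). Over D17-only peaks too, S2 had H3K27me3 at 36.7%, more than the 28.1% in D17 itself. The higher S2 share was therefore not specific to D17-only peaks. S2 had H3K27ac over 25% of the D17-only peaks. By state, 156 of 701 had H3K27ac alone in both lines, 149 had it alone in D17 with neither mark in S2, 138 had H3K27me3 alone in both, and 52 had H3K27ac alone in D17 and H3K27me3 alone in S2. The reverse, H3K27me3 alone in D17 and H3K27ac alone in S2, held for 1 D17-only peak. Over S2-only peaks, 1672 of 3061 had H3K27ac alone in both lines and 541 had it alone in S2 with neither mark in D17. H3K27ac alone in both lines was thus the most frequent state of S2-only peaks, at 54.6%. Among shared S2 peaks that state was more frequent still, at 60.5% (815 of 1347), so it did not set S2-only peaks apart.

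Among D17-only peaks with a gene end within 2000 bp, those of highest fold included peaks at developmental regulators and carried PcG proteins in D17. Peaks beyond that limit, such as one inside Pura (fold 12.5), had higher folds than all of these but the first. The first within the limit, chr2R:7428935-7430031 with a fold of 19.5, lay inside so, a homeobox gene of eye development, 342 bp from an end of CG11145. In D17 it held 9 of the 11 proteins under H3K27me3, and in S2 it held Ph, Pc and Pcl under H3K27me3, with the nearest S2 Sfmbt peak 9086 bp away. At run, a pair-rule gene of segmentation, the peak chrX:20690324-20690995 covered a gene end with a fold of 7.35 and H3K27me3 in D17, while S2 had neither H3K27me3 nor H3K27ac there. At Hesr, a bHLH repressor gene of the Hes family, the peak chrX:18205681-18206400 had a fold of 8.55 and 7 proteins in D17 and none of the 11 in S2. The peak chr3R:7926280-7927078, with a fold of 5.83, lay inside dsx, the sex-determination gene, 1789 bp from an end of lds. It was under H3K27ac in D17 and under H3K27me3 in S2.

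The other D17-only peaks named by the rule were at Awh, a LIM-homeobox gene of imaginal precursors (fold 5.89), CG32532 (5.23), Fatp2 (5.18) and Drl-2, a receptor tyrosine kinase gene (5.05). All 8 held Pho, Ph, Pc, Psc, Scm, Pcl and Spps in D17 and none overlapped a Pho peak in S2. In Kc167, Pho lay over 4 of the 8, at run, Awh, CG32532 and Drl-2. D17-only peaks bound by most other proteins, 10 of 11 each, were inside E23 (fold 4.62), an ecdysone-induced transporter gene, 3472 bp from pyd3 (2.71), inside Sox100B (2.10), a Sox factor gene of the gonad, and 407263 bp from Myo81F (2.22). The last of these had 10 of the 11 proteins in S2 too and the nearest S2 Sfmbt peak was 53268 bp away.

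The S2-only peaks of highest fold included a place at which S2 held every protein and D17 almost none. This peak, chr3L:615822-617459, had a fold of 41.5 and lay over the noncoding gene lncRNA:CR42719, 9253 bp from an end of Reg-2. It held all 11 proteins and H3K27ac in S2, only TrxC in D17, and the nearest D17 Sfmbt peak was 67627 bp away. A neighbouring peak, chr3L:625470-631338 over lncRNA:CR43334, had a fold of 11 with 11 proteins in S2 and 3 in D17. At bab1, a BTB gene of leg and abdomen patterning, the peak chr3L:1102263-1103600 lay 1174 bp from an end with a fold of 18.7. It held 11 proteins under H3K27me3 in S2, and in D17 it held Ph, E(z), Spps, GAF and TrxC with neither H3K27me3 nor H3K27ac. At Su(z)2, itself a PcG gene, an S2-only peak of fold 7.91 lay 860 bp from an end, with 11 proteins in S2 and 4 in D17.

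The remaining S2-only peaks of the rule, with a gene end within 2000 bp, were at CG32081 (fold 13.9) and CG15279 (11.2, over a gene end). Others were at scro, a homeobox gene of the nervous system (11.5), bs, the serum response factor gene (10.2), CG4318 (8.28) and dpr18 (7.74). Pho lay over 7 of the 8 in S2, CG4318 being the exception, and over CG15279 alone in D17. CG4318 held only TrxN of the 11 proteins in either line and lay under H3K27ac in both. No place named here lay in a stretch where the other Sfmbt list skips peak numbers.

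At the level of genes, an Sfmbt peak within 500 bp of either end was found in both lines for 1156 of 13946 protein-coding genes (8.29%), in D17 only for 217 (1.56%) and in S2 only for 2294 (16.4%). For 18 of the D17-only genes and 127 of the S2-only genes the peak itself was shared, the peak of the other line lying over 500 bp from the end. With equal list lengths the counts became 502 and 770. H3K27ac lay at an end of 85.4% of genes with Sfmbt in both lines in D17 and of 83.9% in S2. For D17-only genes the shares were 82.0% in D17 and 60.4% in S2, and for S2-only genes 83.9% and 87.6%. Genes without Sfmbt had H3K27ac at an end in 44.3% of cases in D17 and 40.5% in S2. In D17, H3K27me3 covered at least 50% of the body of 9.86% of genes with Sfmbt in both lines and 11.98% of D17-only genes. It did so at 2.31% of S2-only genes and 8.50% of genes without Sfmbt. In S2 it did so at 12.5% of the genes with Sfmbt in both lines and 19.8% of D17-only genes. The S2 shares were 5.54% for S2-only genes and 18.8% for genes without Sfmbt. Of the D17-only genes, 35.9% were on X, against 10.4% of S2-only genes.

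Developmental regulators with Sfmbt at an end mainly had it in both lines. In 5 lists (homeotic, segmentation, appendage patterning, eye and head, neural and muscle), 63 genes had Sfmbt at an end in both lines (53.4% of the members, against 8.29% of all genes). Another 5 had it in D17 only (4.24%, against 1.56% of all genes) and 8 in S2 only (6.78%, against 16.4%). Of the 63, the D17 peak lay under H3K27me3 at 58 and the S2 peak at 59, and Pho lay over 62 and 60. The median fold was 11 in D17 and 21.7 in S2. Homeotic genes had 6 of 8 in both lines and the others, Ubx and Abd-B, had none within 500 bp of an end, their strong peaks lying inside the gene. Appendage patterning genes had 22 of 36 in both lines, among them vg, the wing selector (folds 21.6 in D17 and 53.3 in S2), and Dll, the distal limb selector (3.65 and 6.68).

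A few members of these lists held Sfmbt in both lines while H3K27me3 over the gene body differed. At en, the segment polarity gene of posterior compartments, the folds were 32.8 in D17 and 67.2 in S2, and H3K27me3 covered 0% of the gene in D17 and 100% in S2. The en peak itself overlapped H3K27me3 in both lines and H3K27ac in D17 alone. At pnr, a GATA factor gene of the dorsal thorax, they were 11.2 and 11.8, with H3K27me3 over 91.7% of the gene in D17 and 0% in S2. At zfh2, a zinc finger homeodomain gene of the proximal wing, they were 1.84 and 10.6, with 0% and 93.2%.

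The 5 developmental genes with Sfmbt at an end in D17 only were run, prd, inv, pdm2 and slou. At prd, a pair-rule gene, the fold was 3.62, at pdm2, a POU factor gene of wing and nervous system, 3.14, and at slou, a homeobox gene of muscle founders, 1.90. All 3 genes lay wholly under H3K27me3 in both lines, whereas run was wholly covered in D17 and 0% in S2. The inv peak, with a fold of 5.17, was itself a shared peak, overlapping an S2 peak of fold 24.0 that lay farther from the end. The inv gene, the paralog of en, had 0% under H3K27me3 in D17 and 100% in S2.

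**Figure D5:**
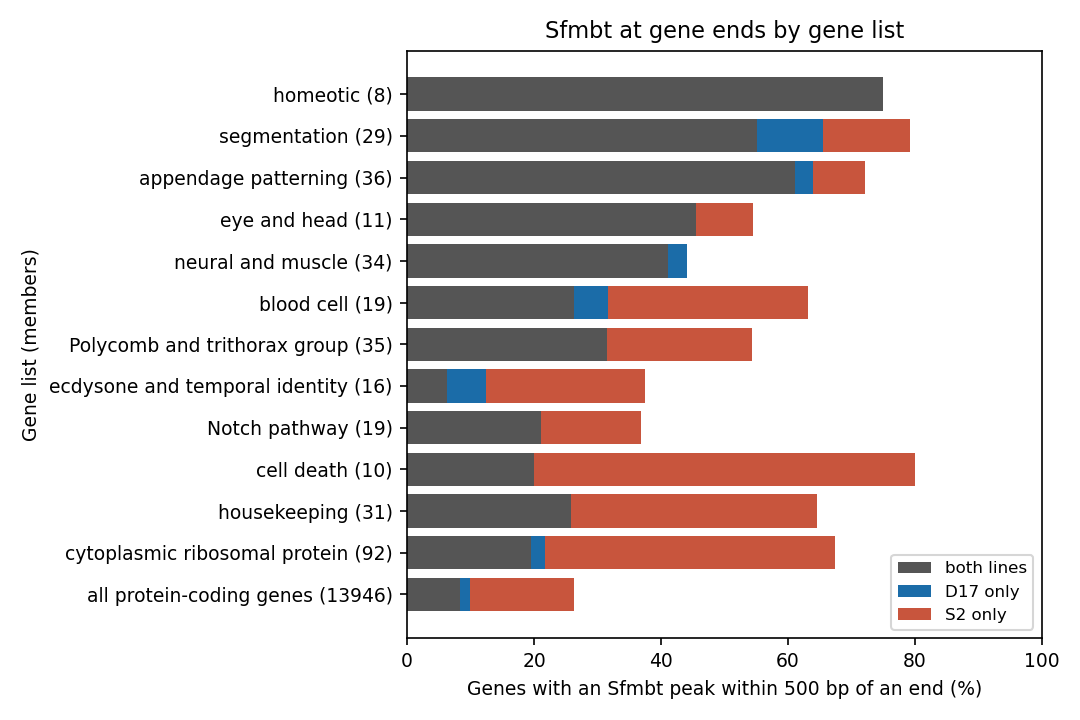
Share of the members of each gene list with an Sfmbt peak within 500 bp of an end (%, x axis), in both lines, in D17 only or in S2 only, with the number of members in brackets and all protein-coding genes in the lowest bar. Both-line binding reaches 75% for homeotic and 8.29% for all genes, and S2-only binding 60.0% for cell death and 16.4% for all genes. A gene counted in S2 only can hold a shared peak, and the S2 peak was S2-only at 3 of the 6 such cell death genes.

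Among the 8 developmental genes bound at an end in S2 only, 2 of the S2 peaks were shared. These were at knrl, a nuclear receptor gene (S2 fold 24.5, overlapping D17 peak 12.8), and at bab2, the neighbour of bab1 (18.3 and 7.02). The bab2 gene had 0% under H3K27me3 in D17 and 74.4% in S2. B-H2, a homeobox gene of the eye and leg (fold 3.86), and hh, the Hedgehog ligand gene (2.50), had S2-only peaks under H3K27me3, and bab1 had a further S2-only peak at its end (2.64). H3K27ac lay at an end of bab1 and hh in both lines and of bab2 in D17 alone.

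Ribosomal protein, housekeeping and cell death genes had Sfmbt in S2 alone more often than in both lines. The same held over all genes, with 16.4% in S2 only and 8.29% in both lines. The shares bound in both lines were 19.6%, 25.8% and 20% for the 3 lists, each above the 8.29% of all genes. Cytoplasmic ribosomal protein genes had 18 of 92 in both lines, 2 in D17 only, RpL4 (fold 1.58) and RpL17 (1.77), and 42 in S2 only (45.7%, against 16.4% of all genes). All 42 S2 peaks were S2-only, 41 lay under H3K27ac and none under H3K27me3, with a median fold of 2.2. The highest was at RpL22 with 3.44. Housekeeping genes had 8 of 31 in both lines and 12 in S2 only (38.7%), with the shared peaks of Hsc70-4, a heat shock cognate chaperone gene (4.11), and Act5C, a cytoplasmic actin gene (3.17), leading by fold. Cell death genes had 2 of 10 in both lines and 6 in S2 only (60.0%), led by Dark, the apoptosome adaptor gene (5.46), and including Diap1, the caspase inhibitor gene (2.91), and at both the S2 peak was itself shared. At only 3 of these 6 genes was the S2 peak an S2-only peak. In the Notch pathway list 4 of 19 genes were bound in both lines and 3 in S2 only (15.8%, near the 16.4% of all genes).

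Genes of the PcG and trithorax group were themselves bound, 11 of 35 in both lines (31.4%, against 8.29% of all genes), 0 in D17 only and 8 in S2 only (22.9%, against 16.4%). The ph-p and ph-d genes, near-identical neighbours that encode Ph, had 1 D17 peak in common, with a fold of 13.6, and S2 peaks of 33.2 and 28.4. Psc had 6.69 and 7.19, and H3K27me3 covered 0% of it in D17 and 100% in S2. The S2-only members were brm, the ATPase gene of the Brahma remodelling complex (3.73), ash1, Pc, skd, Spps, Sfmbt, pho and phol. The last 3 had low S2 folds of 1.97, 1.68 and 1.52, the last near the lower end of the list at 1.5. All 8 lay outside H3K27me3, 7 lay under H3K27ac and 7 had an S2 Pho peak.

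Blood cell genes had 5 of 19 in both lines (26.3%, against 8.29% of all genes), 1 in D17 only and 6 in S2 only (31.6%, against 16.4%). Pxn, a peroxidasin gene of hemocytes, had the highest S2-only fold at 4.05, followed by atilla, a lamellocyte marker gene (3.09), and Col4a1, a collagen IV gene (2.72). At Col4a1 H3K27ac lay at an end in S2 and not in D17, and at Pxn in both. The D17-only member was Hml, the hemolectin gene of plasmatocytes, with a fold of 1.81 and H3K27ac at an end in both lines. In the ecdysone and temporal identity list, 1 of 16 genes, usp, was bound in both lines (6.25%, against 8.29% of all genes). In D17 only, br was bound (1.59), and 4 were bound in S2 only (25%, against 16.4%), led by Eip75B, a nuclear receptor gene (4.03), and chinmo, a BTB gene of early temporal identity (3.08).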

How the data were processed

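ChIP-seq peak lists of Sfmbt in D17 and S2 were analysed with the other lists of the series. Per the submitters' processing notes, the authors' tools were Trim Galore 0.6.4, Bowtie2 2.3.5.1, SAMtools 1.13, MACS2 2.2.6 and bedtools 2.29.2, and the build was BDGP6 (dm6). How replicates and input entered each list is not given in the sources used here. Each deposited peak has a score, a fold enrichment (a ratio over control) and a significance as −log10 q. The deposited score equals 10 times the deposited −log10 q, within 1, for all Sfmbt peaks, and the lowest fold is 1.50 in both lists. The lowest deposited −log10 q is 2.18 in D17 and 1.40 in S2. Peak names of the D17 list skip 131 numbers and those of the S2 list 216. The reason is not given in the sources used here. The stretches around skipped numbers of the D17 list hold 218 S2-only peaks, and those of the S2 list 26 D17-only peaks.

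Overlap meant at least 1 bp. RefSeq supplied 13946 protein-coding genes without strand (assembly: Release 6 plus ISO1 MT, which is dm6). Symbols of all gene list members were matched. Named places were the 8 shared peaks with the highest lower fold percentile, the 8 line-only peaks of highest fold per line, each with a gene end within 2000 bp and 1 per gene, the 4 line-only peaks per line with most other proteins, and up to 30 list members per line with Sfmbt in that line only. Of the shared peaks so chosen, 1 is not reported here. Other places and list members named (bxd, Abd-B, Ubx, Glut4EF, Syp, rib, genes bound in both lines and members beyond 30) were chosen after their values were seen. The members and lists were chosen with earlier results of these data known. Overlap was tested on simulated data, where 600 of 600 planted overlaps were found, and 12 of 12 counts equalled those of bedtools 2.31.1. The software was SciPy 1.17.1, NumPy 2.4.6, pandas 2.3.3 and matplotlib 3.10.9 under Python 3.11.15. The planned promoter motif search was not run, since no genome sequence was used here.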

Additional observations from a re-analysis of the deposited data

How the results depend on the processing

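Of 106 alternative values for 14 results, 64 stayed within the counting interval or tolerance of the reported value, 39 moved and 3 changed sign. Gene counts, judged by a fixed tolerance, do not use the peak classes. The settings of 50% of the peak width and of 1000 bp between peaks could therefore not move them. Leaving out stretches of skipped peak numbers and ranking by score moved none. Differences are shared minus line-only. Counting overlap only from 50% of the peak width gave shared shares of 59.4% (D17) and 23.6% (S2), gene-end difference 23.9 (D17), H3K27ac 7.29 (D17) and -16.7 (S2), and H3K27me3 25 (S2). Counting peaks within 1000 bp as shared gave 70.6% and 34.7%, percentile differences 16.5 and 38.1, and Pho 34.0 (S2). The higher-scoring 50% of each Sfmbt list gave 70.0% and 32.8%, percentile 44.1 (S2), gene end 3.6 (S2), H3K27ac 3.15 and -25.9, H3K27me3 0.406 (D17, reversed in sign) and 33.5 (S2), Pho 3.46 and 34.0, and 99 D17-only and 1211 S2-only genes. The S2 list at the D17 length gave 52.8% and 51.4%, percentile 30.5 and 36.7, gene end 17.1 (D17), H3K27ac -0.585 and H3K27me3 3.84 (D17, both reversed in sign), Pho 22.2 and 31.7, and 502 and 770 genes. Leaving out X and Y, an alternative chosen after seeing the data, gave 69.4% in D17 and 139 D17-only genes. Distance from the peak centre gave gene-end differences of 27.3 and 5.63. The higher-scoring 50% of the partner lists gave H3K27ac 20.3 and -4.82 and Pho 18.4 (D17). Pho over the peak centre gave 34.9 (S2). The cause was not tested beyond the shorter lists these settings make.

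No paired analysis was possible because the lists carry no values per replicate, and for the same reason no replicate was left out. Depth is unknown, so a peak missing from a list is not shown to be unbound, and the longer S2 list limits every comparison of line-only classes.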

Other observations

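Some shared peaks ranked very differently in the 2 lists, and these were picked out after their values were seen. Of the 21 pairs with a top decile S2 peak and a D17 peak in the lower 50%, 11 lay under H3K27ac alone in both lines, 5 under H3K27me3 alone in both and 2 under H3K27ac alone in D17 and H3K27me3 alone in S2. Those 2 were in chinmo, with a D17 fold of 1.60 and an S2 fold of 18.2, and in zfh2, with 1.96 and 10.6. A further pair lay 597 bp from CG8635, with a fold of 1.80 in D17 and 41.0 in S2. In the opposite direction, the peak in rib, a BTB gene of tracheal and salivary gland development, had 6.95 in D17 and 1.85 in S2, and it lay under H3K27me3 in both.

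The same classing of other proteins gave shared shares of 53.8% (Pho), 71.7% (Ph), 63.7% (Spps) and 80.1% (GAF) of the D17 lists and 46.5%, 64.1%, 60.2% and 76.2% of the S2 lists, beside 66.1% and 30.6% for Sfmbt.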
